A study of Drosophila melanogaster with 5 samples.

Results

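The DNA replication machinery was represented by 42 genes of the 14819 genes in the authors' table of the hs-Bam time course, which holds 17528 features once its 2709 transposon insertions are counted. The genes were chosen by name for their roles in origin recognition, licensing, the MCM helicase, origin firing, DNA synthesis, nucleotide supply and chromatin assembly behind the fork, and a row belonged when its gene name matched. All 42 were found, and their mean levels over the 5 libraries were all 10 CPM or more (reads of a gene per 1000000 reads, after normalization between libraries). In no HS, the shallowest library, their reads ran between 288 for Psf1 and 5172 for PCNA.

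Poly(A) RNA was sequenced from testes with seminal vesicles of flies of the genotype hs-bam; bam[1]/bam[86], which all 5 groups shared. These males lack normal bam function, so that their testes fill with spermatogonia that keep dividing, and they carry a Bam transgene under a heat shock promoter. Bottles with mid to late pupae had either no heat shock (no HS) or were put at 37 °C for 30 min and taken 8, 16, 24 or 32 h post heat shock (PHS) at 25 °C, with about 100 pairs of testes pooled into 1 library for each. The series was designed to follow germ cells as a pulse of Bam takes them out of proliferation and into the spermatocyte program. The heat shock promoter is not restricted to germ cells, and with 0 libraries here from heat-shocked testes that lack the transgene, Bam and the heat shock itself cannot be told apart. The authors profiled such testes by microarray, which was not used here. The age of the animals at dissection is not given, so its part cannot be told apart either. With 1 library per time there is no replicate check and no test between conditions, and the intervals given here cover counting error only.

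In eukaryotes, the origin recognition complex (ORC) marks the sites where replication can start. Cdc6 and Cdt1 then load the MCM ring there in G1 phase, and Cdc45 and the GINS complex turn the loaded ring into an active helicase in S phase. Behind it the polymerases, the sliding clamp PCNA and its loader copy the strands, single-stranded DNA is covered by RPA, and ribonucleotide reductase supplies the deoxynucleotides. In the fly testis, spermatogonia pass through repeated S phases, and after a last, premeiotic S phase the germ cells become spermatocytes that grow in a long G2 phase.

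The samples are labelled as mainly germ cells, although whole testes hold other cells too. The libraries held 21461541 to 28766676 assigned reads after the heat shock and 10356663 in no HS, as recovered from the steps of the CPM values, which were whole multiples of 1 read for 100% of values. Germ line markers were present throughout: the 8 genes of that list, among them vas and nos, summed to 1660.4 CPM in no HS, then 1567 (8 h), 1419 (16 h), 1459.9 (24 h) and 1297 (32 h PHS). Their median log2 change was -0.47 at 24 h and -0.61 at 32 h. Beyond counting error, 5 of the 8 were lower and 3 higher at 24 h, and 6 were lower and 2 higher at 32 h. At 32 h the 8 ran from zpg, a germ line gap junction gene, at -1.33 to AGO3 at 0.33. The 8 spermatocyte markers, with kmg, Rbp4 and fest among them, summed to 61.4 CPM in no HS, then 68.9 (8 h), 56.6 (16 h), 257 (24 h) and 823 (32 h PHS). Their sum was thus higher by 24 h, and comr and sa were at 0 in no HS. Of the 8, 6 were higher at 24 h and 7 at 32 h, of which 3 and 4 were past 2-fold. Beyond counting error, 4 were higher and 1 lower at both times, and 5 of the 8 had a mean of at least 10 CPM. Of all 17528 features, 96 were higher past 2-fold at 24 h and 198 at 32 h. The median log2 change of the 8 markers was 0.46 at 24 h and 1.80 at 32 h, but mia was lower at both times, at -0.43 and -0.24. Cells other than germ cells were measured as well, since the 6 muscle sheath genes summed to between 1057 CPM (no HS) and 1416 CPM (24 h) and the 5 cyst cell genes to between 159 CPM (32 h) and 199.8 CPM (no HS). All 6 muscle sheath genes were higher than in no HS beyond counting error at 16, 24 and 32 h. Their median log2 change was 0.38 (16 h), 0.44 (24 h) and 0.41 (32 h). The 3 hub genes stayed between 109.5 and 129.6 CPM, the 5 fat body genes between 8.57 and 11.5 CPM, and the 5 accessory gland genes reached at most 1.65 CPM, with 3 of the 5 at 0 in no HS. The 6 heat shock genes, which summed to 13216 CPM in no HS, then 15654 (8 h), 12767 (16 h), 16281 (24 h) and 16303 (32 h PHS), were lowest at 16 h in sum, most of which came from Hsp83 and Hsc70-4. Gene by gene, 3 of the 6 were higher past 2-fold at 8 h, against 35 of all 17528 features. Hsp23 led with a log2 change of 2.39, and the median log2 change of the 6 was 1.23 at 8 h and 0.16 at 16 h. The part of these shifts in the values that follow was not tested.

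Transcripts of the replication genes were close to their no HS levels at 8 h PHS, and 39 of the 42 were lower at each of the 3 later times. The exceptions were geminin, chif and Top1 at 16 h, and Cdc7, chif and Top1 at 24 h and again at 32 h. The median log2 change, the difference of log2(CPM + 1) from no HS, was -0.01 (8 h), -0.30 (16 h), -0.80 (24 h) and -0.91 (32 h). As a share of no HS, the median gene stood at 99.3% (8 h), 81.01% (16 h), 56.97% (24 h) and 52.9% (32 h). In bulk RNA, fewer cells of a type and less RNA per cell cannot be told apart. Over the 6603 features at or above a mean level of 10 CPM, the median log2 change was 0.01 at 8 h and -9.5e-05 at 32 h. Their lower and upper quartiles were -0.22 and 0.18 at 32 h.

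A decrease past 2-fold was seen for 0 of 42 members at 8 h and at 16 h, for 16 of 42 at 24 h and for 18 of 42 at 32 h, and 0 members were higher past 2-fold at any time. Among all 17528 features the share with such a decrease was 0.165% (8 h), 0.416% (16 h), 0.987% (24 h) and 1.18% (32 h). Among the 6603 features it was 0.136% (8 h), 0.424% (16 h), 1.42% (24 h) and 2.09% (32 h). Increases past 2-fold were also rare in that set, with 8 (8 h), 9 (16 h), 40 (24 h) and 49 (32 h) of the 6603. The 0 members with an increase were thus near the background. Of the 100 largest decreases in that set, replication genes made up 16 at 24 h and 17 at 32 h PHS. The interval, here always the 95% Clopper-Pearson interval of a gene's log2 ratio between a pair of libraries from its reads, lay wholly below 0 for 8 members at 8 h, 32 at 16 h and 39 at both 24 and 32 h. Of the 6603 features, 21.8% (8 h), 25% (16 h), 28.1% (24 h) and 33.3% (32 h) were below 0 in the same way. It lay wholly below a 2-fold decrease for 12 members at 24 h and 16 at 32 h, against 1.08% of the features at 24 h and 1.39% at 32 h. At 32 h the gene just past 2-fold was RPA2, with a log2 change of -1.03, and the one just short of it was Cdc6, whose log2 change of -0.998 is under 1 in size. RPA2 was also the last one past 2-fold at 24 h, at -1.01, with Orc6 next at -0.92.

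**Figure D1:**
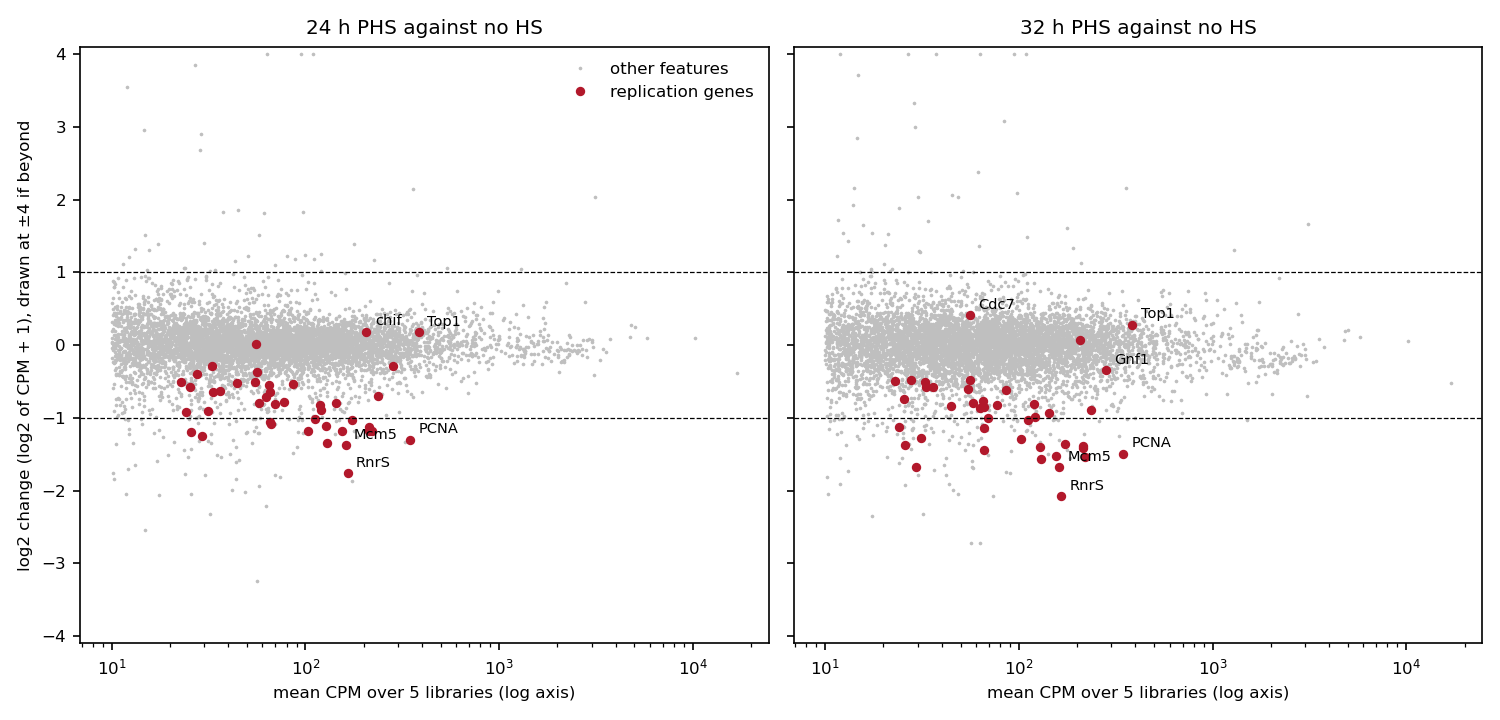
Log2 change from no HS (y axis, log2(CPM + 1) scale) against the mean CPM over 5 libraries (x axis, log scale) for 6603 features, with the 42 replication genes in red, at 24 h PHS (left) and 32 h PHS (right). At each time 39 of the 42 lie below the lower quartile of these features. Below the dashed line of a 2-fold decrease there are 16 at 24 h and 18 at 32 h, with Top1, chif and Cdc7 above 0.

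At 8 h PHS the replication genes lay on both sides of their no HS levels. The log2 changes lay between -0.26 for Chrac-14 and 0.29 for Top1, while the quartiles of the 6603 features were -0.10 and 0.13. The interval was above 0 for 13 genes, namely Orc6, dup, geminin, Mcm2, dpa, Mcm5, Mcm7, Sld5, PolE1, RfC3, Gnf1, Top1 and Caf1-105. It was below 0 for 8 genes, namely Mcm3, Psf3, PolA2, RfC4, RfC38, RPA2, Fen1 and Chrac-14. Among the 6603 features 24.4% were above 0 and 21.8% below it, so the members' counts were near the background, and 9 of the 42 lay under the lower quartile of the features.

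**Figure D2:**
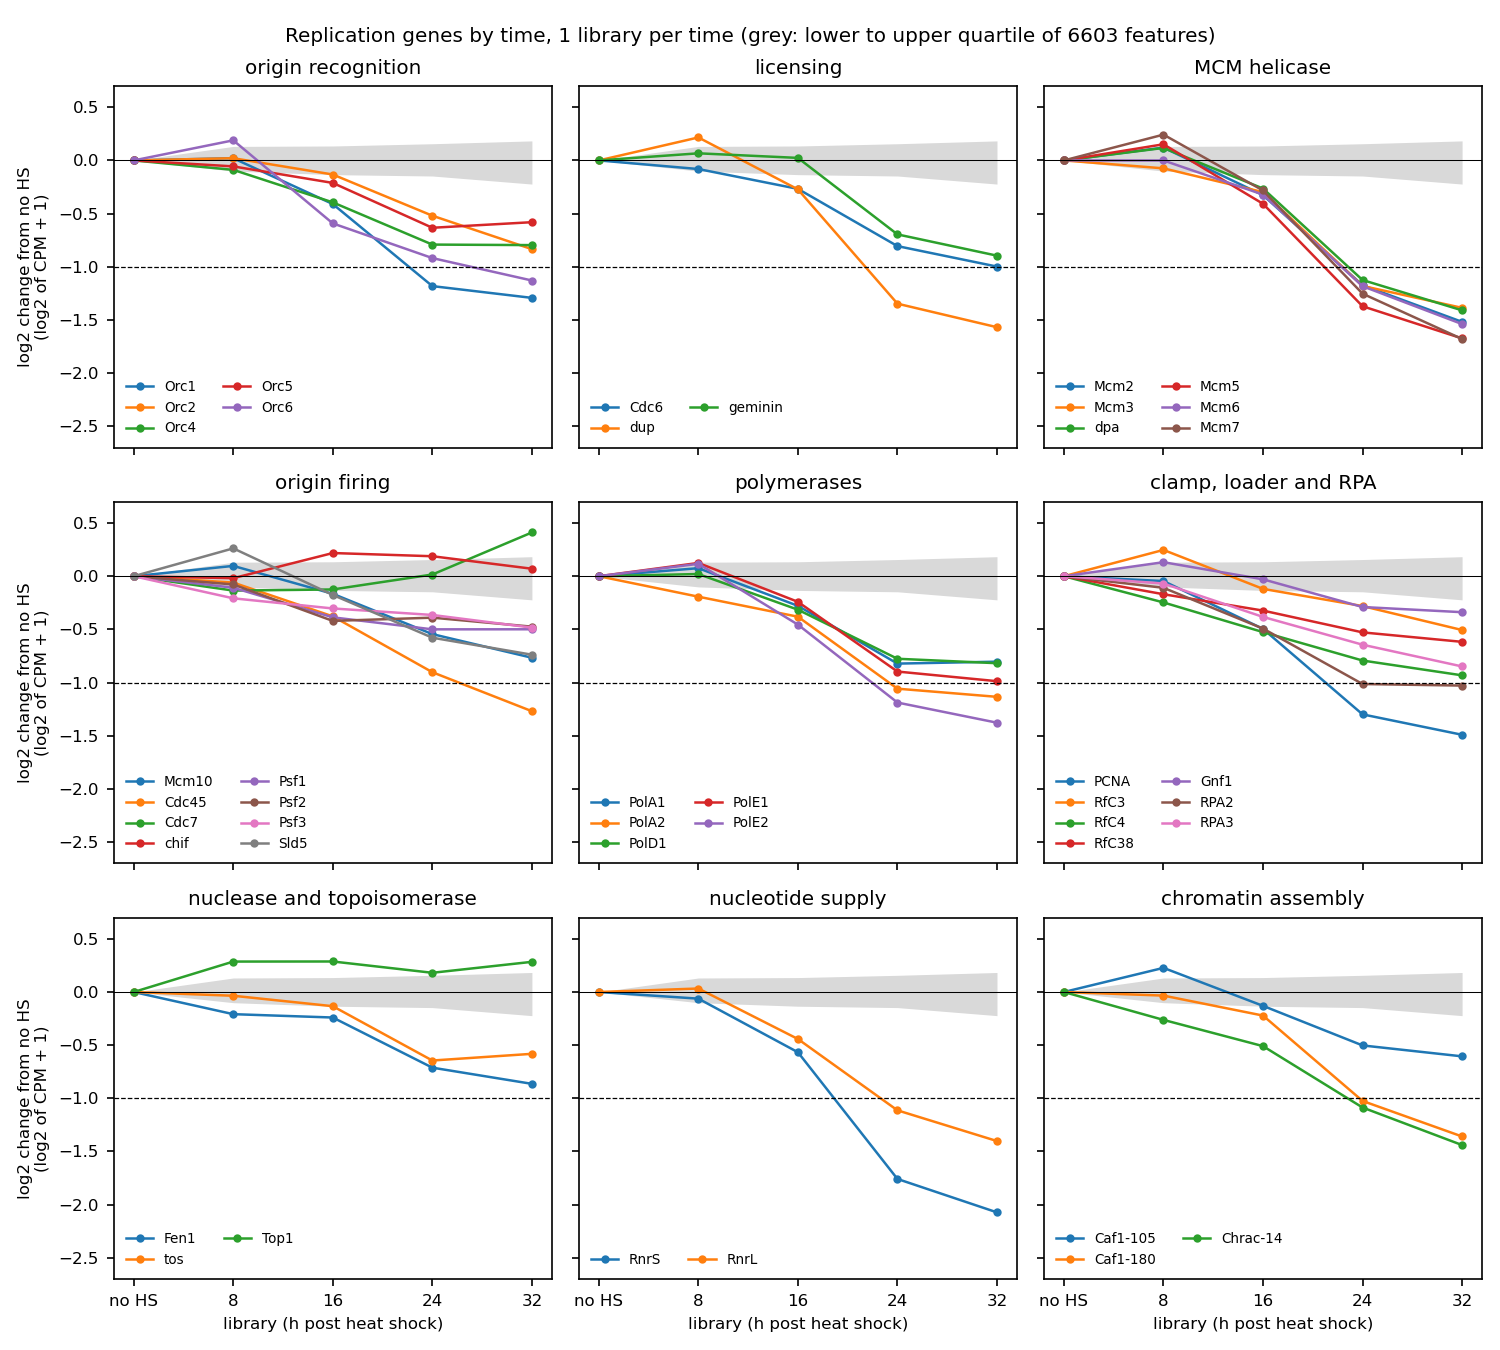
Log2 change from no HS (y axis, on the log2(CPM + 1) scale) against library (x axis, h post heat shock) for each of the 42 genes, in 9 panels by role, with 1 point per library and the lower to upper quartile of 6603 features in grey. The dashed line marks a 2-fold decrease: all 6 MCM genes and both ribonucleotide reductase genes pass it at 24 h, whereas Top1, chif and Cdc7 end above 0.

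Orc1 carried the largest decrease of the 5 ORC genes measured, and the other subunits were lower by less. Orc1 (FBgn0286788, chromosome 2R from 7522437 to 7525716 in BDGP6.54, the build of all positions given here) encodes the ATPase that binds origins together with the rest of the complex. It had 143 CPM in no HS, then 145 (8 h), 107 (16 h), 62.3 (24 h) and 57.6 (32 h PHS), a log2 change at 32 h of -1.29 with an interval of -1.41 to -1.20. The 24 and 32 h libraries were thus both under the 3 earlier ones, at 43.7% and 40.4% of no HS.

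Orc6 (FBgn0023180, chromosome 2R from 9845458 to 9846485), the smallest subunit, needed in flies both for DNA binding by ORC and for cytokinesis, had 32.1 CPM in no HS, then 36.8 (8 h), 20.97 (16 h), 16.5 (24 h) and 14.1 (32 h PHS). It was the member with the largest decrease at 16 h, -0.59 on the log2 scale with an interval of -0.82 to -0.41, and it passed 2-fold only at 32 h (-1.13, interval -1.41 to -0.96). Sting overlaps 5.66% of its exonic bases on the other strand and had 19.3 CPM at 32 h against 24.2 CPM in no HS, and since it is not stated whether counting used strand, reads over shared bases cannot be told apart. Orc2, Orc4 and Orc5 code for core subunits of the ring that ORC forms on DNA. Orc2 had 53.3 CPM in no HS, then 54.05 (8 h), 48.5 (16 h), 36.8 (24 h) and 29.4 (32 h PHS). Orc4 had 75.2 CPM in no HS, then 70.6 (8 h), 56.9 (16 h), 43.00 (24 h) and 42.9 (32 h PHS). Orc5 had 44.01 CPM in no HS, then 42.3 (8 h), 37.9 (16 h), 28.02 (24 h) and 29.1 (32 h PHS), the smallest decrease of the group with a log2 change of -0.58 at 32 h. None of these 3 passed 2-fold, and for Orc4 and Orc5 the 24 and 32 h values lay within each other's counting error, with intervals of the step between them of -0.13 to 0.12 and -0.09 to 0.20. Over the 5 genes the median log2 change was -0.39 (16 h), -0.79 (24 h) and -0.83 (32 h). The gene for Orc3 was not analysed here.

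The licensing factor dup was lower by more than its inhibitor geminin. The gene dup (double parked; FBgn0000996, chromosome 2R from 15376619 to 15380988) encodes the fly Cdt1, which brings the MCM ring to ORC. It had 175 CPM in no HS, then 203 (8 h), 144 (16 h), 68.04 (24 h) and 58.2 (32 h PHS), a log2 change of -1.35 at 24 h and -1.57 at 32 h (interval -1.69 to -1.48), and its level at 8 h was the highest of the 5. Geminin binds Cdt1 and blocks relicensing. The geminin gene (FBgn0033081, chromosome 2R from 6655463 to 6656594) had 279.7 CPM in no HS, then 293 (8 h), 284 (16 h), 172 (24 h) and 149.9 (32 h PHS), so that it stood at 102% of no HS at 16 h and at 53.6% at 32 h, a log2 change of -0.90, interval -0.97 to -0.83.

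The intervals of dup and geminin at 32 h did not overlap. Per kb of exon, which allows levels of different genes to be compared, geminin was above dup by a ratio of 4.74 in no HS, then 4.27 (8 h), 5.82 (16 h), 7.49 (24 h) and 7.61 (32 h PHS). The ratio was thus highest in the 24 and 32 h libraries. Cdc6 encodes the ATPase that joins ORC to load MCM. Its level was 90.7 CPM in no HS, then 85.7 (8 h), 75.2 (16 h), 51.5 (24 h) and 44.9 (32 h PHS), and its log2 change at 32 h was at the 2-fold line with an interval of -1.14 to -0.89. Exons of SRPK on the opposite strand overlap 5.04% of those of dup, and SRPK had 529 CPM at 32 h against 441 CPM in no HS.

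All 6 genes of the MCM helicase, the ring that unwinds DNA, were lower by over 2-fold at both 24 and 32 h PHS. Their median log2 change was 0.12 (8 h), -0.31 (16 h), -1.18 (24 h) and -1.53 (32 h), and at 32 h the median gene was at 34.4% of no HS. They moved within a narrow band, between -1.68 for Mcm7 and -1.39 for Mcm3 at 32 h. The 36 other members had at 32 h a median log2 change of -0.84, with 12 of 36 past 2-fold.

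Mcm5 (FBgn0017577, chromosome 3R from 10788524 to 10791150) had 227 CPM in no HS, then 252 (8 h), 171 (16 h), 86.99 (24 h) and 70.3 (32 h PHS), a log2 change of -1.67, interval -1.78 to -1.60 at 32 h. Mcm6 (FBgn0025815, chromosome X from 6674387 to 6677176) had 308 CPM in no HS, then 308 (8 h), 247 (16 h), 135 (24 h) and 105 (32 h PHS). Mcm3 (FBgn0284442, chromosome X from 5323855 to 5326738) had 299 CPM in no HS, then 284 (8 h), 243 (16 h), 131 (24 h) and 114 (32 h PHS), with a log2 change at 32 h of -1.39 and an interval of -1.47 to -1.32. In each of these genes, whose products sit in one ring, the first 2 libraries were highest, 16 h lay between, and 24 and 32 h were lowest in that order. Mcm2 had 211 CPM in no HS, then 229.9 (8 h), 168 (16 h), 93.2 (24 h) and 73.1 (32 h PHS). The gene dpa (disc proliferation abnormal), which encodes Mcm4, had 285 CPM in no HS, then 309 (8 h), 237 (16 h), 130.2 (24 h) and 107 (32 h PHS). Both repeated that order. For all 6, the interval of the step between 24 and 32 h lay below 0, so that the 32 h library was lower than the 24 h library beyond counting error. The same held for 34.6% of the 6603 features.

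Mcm7 (FBgn0020633, chromosome 3L from 8891596 to 8894310) was the lowest of the 6 in reads and had 39.5 CPM in no HS, then 46.96 (8 h), 32.3 (16 h), 16.00 (24 h) and 11.7 (32 h PHS), a log2 change of -1.68 at 32 h with an interval of -1.99 to -1.54. Its exons overlap the antisense gene asRNA:CR45871, not analysed here, over 81.7% of their bases. Per kb of all its exons Mcm7 was at 16.1 CPM in no HS, while the other 5 genes lay between 72.9 and 111 CPM per kb. Dividing all of its CPM by the 448 bases that no other annotated gene shares gave 88.2 CPM per kb in no HS. This measure was chosen after its values had been seen, and it assumes that no read over shared bases was counted. The value at 32 h was 26.01 CPM on that measure, against 25.2 to 41.4 CPM per kb for the other 5 at 32 h. How reads over shared bases were assigned is not stated, and the level of Mcm7 is uncertain for that reason.

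**Figure D3:**
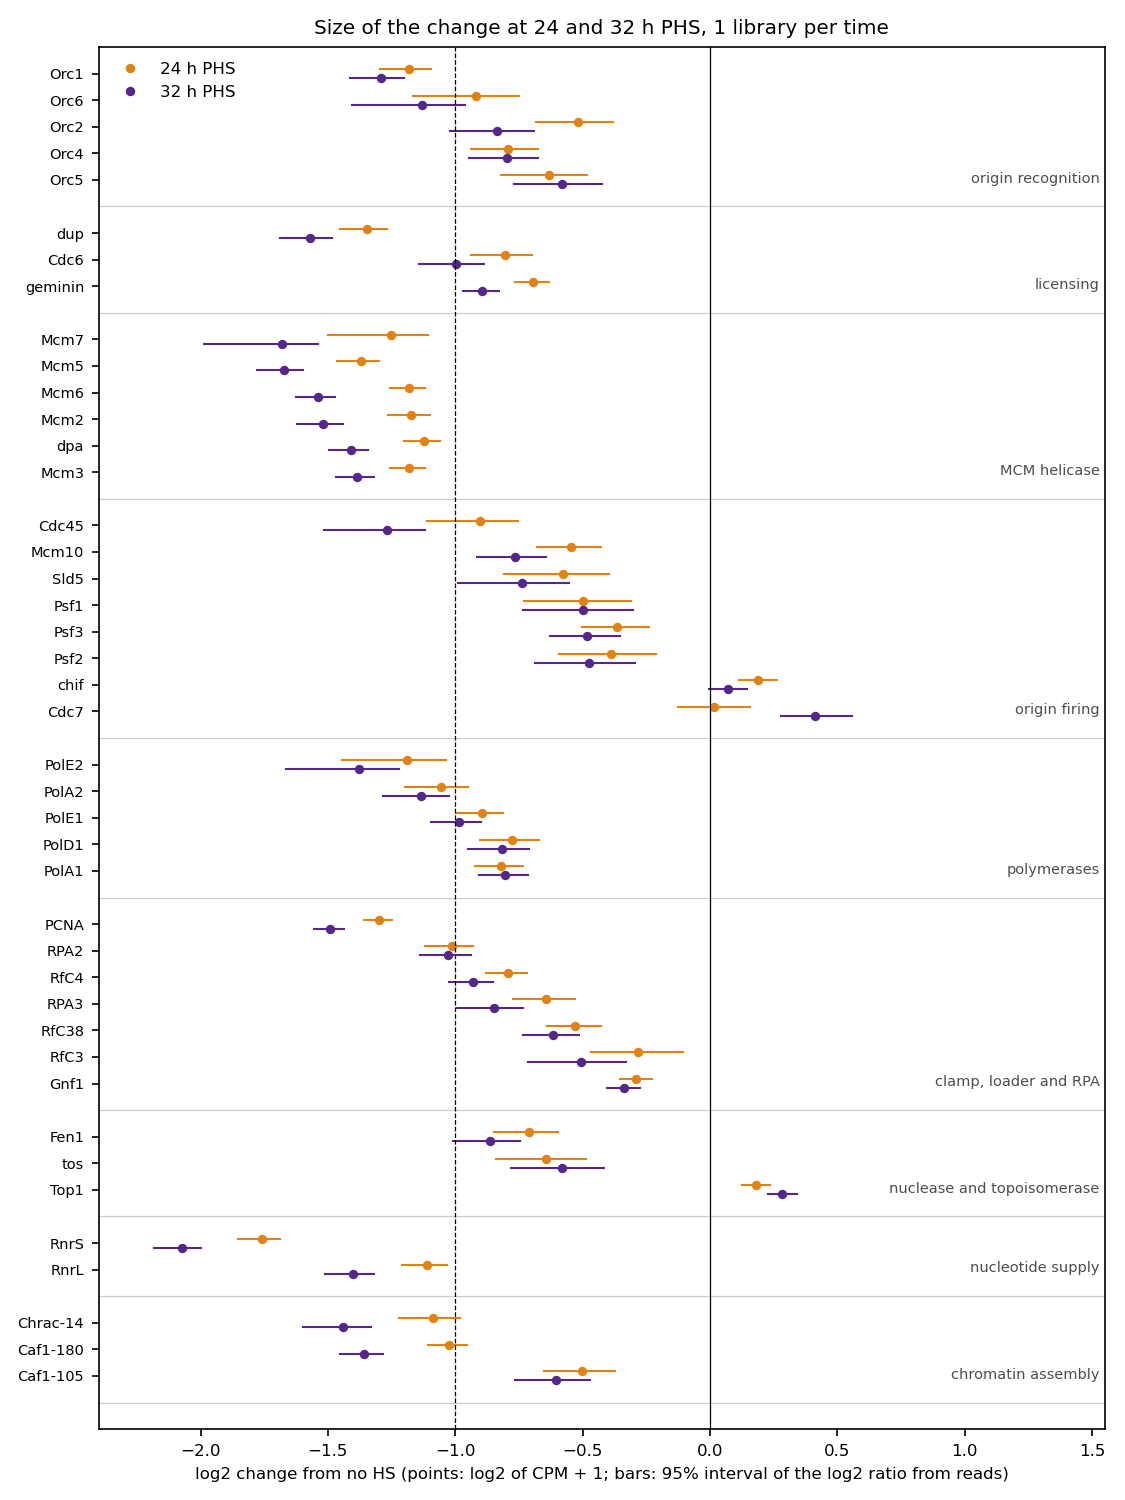
Log2 change from no HS (x axis) at 24 h PHS (orange) and 32 h PHS (purple) for each gene, grouped by role and ordered within a role by its value at 32 h, with 1 library per time. Points are differences of log2(CPM + 1), bars are 95% intervals of the log2 ratio from reads, and the dashed line is a 2-fold decrease, which all 6 MCM genes pass at both times while the GINS genes Psf1, Psf2, Psf3 and Sld5 do not.

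The genes that turn loaded MCM rings into moving forks were lower by less than the MCM genes, and 2 of the 8 were higher at 32 h. Of this group Cdc45 alone passed 2-fold. Cdc45 (FBgn0026143, chromosome X from 1028291 to 1030556) joins MCM and GINS in the active helicase. It had 42.8 CPM in no HS, then 41.1 (8 h), 32.7 (16 h), 22.4 (24 h) and 17.2 (32 h PHS), with a log2 change of -0.90 at 24 h and -1.27 at 32 h (interval -1.52 to -1.12). Mcm10, which helps to activate the helicase, had 76.9 CPM in no HS, then 82.3 (8 h), 68.5 (16 h), 52.4 (24 h) and 44.8 (32 h PHS), a log2 change of -0.77 at 32 h. Exons of Mcm10 share 13.01% of their bases with Ret on the other strand, which had at most 0.77 CPM.

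The 4 GINS genes code for the complex that holds Cdc45 to the MCM ring. Psf1 had 28.04 CPM in no HS, then 25.9 (8 h), 21.2 (16 h), 19.5 (24 h) and 19.5 (32 h PHS). Psf2 had 33.3 CPM in no HS, then 31.5 (8 h), 24.6 (16 h), 25.2 (24 h) and 23.7 (32 h PHS). Neither differed between 16 and 24 h beyond counting error, with intervals of the step from 16 to 24 h of -0.30 to 0.06 for Psf1 and -0.13 to 0.20 for Psf2. Psf3 had 67.3 CPM in no HS, then 58.1 (8 h), 54.3 (16 h), 52.04 (24 h) and 47.8 (32 h PHS), and it was the gene of this group that was lower at 8 h beyond counting error (log2 change -0.21, interval -0.34 to -0.08). Sld5 had 29.4 CPM in no HS, then 35.5 (8 h), 25.9 (16 h), 19.4 (24 h) and 17.2 (32 h PHS), with its highest level at 8 h and a log2 change of -0.74 at 32 h (interval -0.99 to -0.55), the largest decrease of the 4. Over GINS the median gene was at 70.4% of no HS at 32 h, against 34.4% for MCM. Every MCM interval at 32 h lay below every GINS interval: the MCM interval nearest to 0 ended at -1.32 (Mcm3), and the GINS interval farthest from 0 began at -0.99 (Sld5). CG17841 shares 34.9% of the exonic bases of Psf3 on the opposite strand and stayed between 117 CPM at 8 h and 137 CPM at 24 h, and its part in the values of Psf3 was not tested.

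The kinase of origin firing also departed from the rest. Cdc7 (FBgn0028360, chromosome X from 6654541 to 6659709) encodes the kinase that phosphorylates MCM to start firing, and chif (chiffon; FBgn0000307, chromosome 2L from 16342430 to 16352628) encodes its Dbf4-like activator and, in flies, also a protein of a histone acetyltransferase complex. Cdc7 had 53.8 CPM in no HS, then 48.9 (8 h), 49.3 (16 h), 54.5 (24 h) and 71.9 (32 h PHS), so that the 32 h library was the highest, with a log2 change of 0.41 and an interval of 0.28 to 0.56. It was higher at 24 h than at 16 h by a step of 0.14 (interval 0.03 to 0.26), and at 32 h than at 24 h by a step of 0.396 (interval 0.30 to 0.50). For chif the levels were 193 CPM in no HS, then 191 (8 h), 225 (16 h), 220.4 (24 h) and 203 (32 h PHS), highest at 16 and 24 h, and the interval at 32 h of -0.00497 to 0.147 included 0. Hyls1 shares 19.5% of the exonic bases of chif on the same strand and was not analysed here, so reads over those bases are uncertain.

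The genes of the replicative polymerases were all lower from 16 h on, and 2 of 5 passed 2-fold. The median log2 change was -0.31 (16 h), -0.90 (24 h) and -0.99 (32 h). PolE2 (FBgn0035644, chromosome 3L from 5895691 to 5897435) encodes the second subunit of polymerase epsilon, which copies the leading strand. It had 35.8 CPM in no HS, then 38.9 (8 h), 25.9 (16 h), 15.2 (24 h) and 13.2 (32 h PHS), the largest decrease of the group with a log2 change of -1.38 at 32 h (interval -1.67 to -1.22). PolE1, the catalytic subunit of the same enzyme, had 152 CPM in no HS, then 166 (8 h), 128 (16 h), 81.2 (24 h) and 76.2 (32 h PHS), a log2 change of -0.99, interval -1.10 to -0.90. The ratio of PolE1 to PolE2 per kb of exon was 1.43 at 32 h against 1.05 in no HS.

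Polymerase alpha makes the primers with primase. PolA2, its accessory subunit, had 92.5 CPM in no HS, then 80.8 (8 h), 70.8 (16 h), 43.9 (24 h) and 41.6 (32 h PHS), past 2-fold at both late times with log2 changes of -1.06 at 24 h and -1.13 at 32 h. PolA1, the catalytic subunit of that enzyme, had 149 CPM in no HS, then 157 (8 h), 123 (16 h), 83.8 (24 h) and 84.9 (32 h PHS), and did not differ between 24 and 32 h beyond counting error (interval of the step -0.07 to 0.10). PolD1 encodes the catalytic subunit of polymerase delta, which copies the lagging strand. It had 97.5 CPM in no HS, then 98.9 (8 h), 78.2 (16 h), 56.5 (24 h) and 54.8 (32 h PHS), a log2 change of -0.82 at 32 h. Between 24 and 32 h the interval of the step lay below 0 for 1 of the 5 polymerase genes and for 6 of 6 MCM genes. Of the 6603 features, 34.6% were below 0 in the same way, so the polymerase count was not above the background. The 1 gene was PolE1, whose interval of -0.18 to -0.0024 ended close to 0.

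PCNA, the sliding clamp that keeps polymerases on DNA, was the most abundant replication transcript per kb and was lower by more than its loader. The gene (FBgn0005655, chromosome 2R from 20261754 to 20262883) had 504 CPM in no HS, then 488 (8 h), 357 (16 h), 204 (24 h) and 178 (32 h PHS), a log2 change of -0.50 (16 h), -1.30 (24 h) and -1.49 (32 h). Its interval at 32 h was -1.56 to -1.44. Each library was lower than the one before, although the interval at 8 h, -0.092 to 0.0012, included 0. The 4 genes of the clamp loader, which opens PCNA around DNA, had at 32 h a median log2 change of -0.56, and none passed 2-fold. RfC4 had 197 CPM in no HS, then 166 (8 h), 137 (16 h), 113 (24 h) and 103 (32 h PHS), the largest decrease of the loader with a log2 change of -0.93 at 32 h (interval -1.02 to -0.85). RfC38 had 107 CPM in no HS, then 95.03 (8 h), 85.3 (16 h), 73.9 (24 h) and 69.4 (32 h PHS). Like RfC4, the genes RfC38 and RfC3 encode small subunits of the loader ring. RfC3 had 35.4 CPM in no HS, then 42.3 (8 h), 32.6 (16 h), 29.00 (24 h) and 24.7 (32 h PHS), with 8 h as its highest library. Gnf1, which encodes the large subunit, had 302 CPM in no HS, then 330.5 (8 h), 295 (16 h), 246 (24 h) and 238 (32 h PHS), the smallest decrease of the loader with a log2 change of -0.34 at 32 h and an interval of -0.403 to -0.28. Nup160 overlaps 25.2% of the exonic bases of RfC38 on the other strand and had 106 CPM at 32 h against 126 CPM in no HS.

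RPA coats the single strands that the helicase exposes. RPA2 had 155 CPM in no HS, then 143 (8 h), 109.6 (16 h), 76.1 (24 h) and 75.3 (32 h PHS), so that its level at 24 and 32 h was just past 2-fold below no HS, with an interval of -1.14 to -0.94 at 32 h. RPA3 had 84.5 CPM in no HS, then 80.5 (8 h), 64.6 (16 h), 53.7 (24 h) and 46.5 (32 h PHS), a log2 change of -0.85 at 32 h. RPA1, the large subunit and not among the 42, had a log2 change of -0.83 at 32 h, close to that of RPA3.

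Fen1 and tos were lower at 24 and 32 h, whereas Top1 was higher in all libraries after the heat shock. Fen1 (FBgn0025832, chromosome 2R from 16854025 to 16855464) cuts the flaps of Okazaki fragments and had 81.5 CPM in no HS, then 70.4 (8 h), 68.9 (16 h), 49.4 (24 h) and 44.3 (32 h PHS), a log2 change of -0.86 at 32 h with an interval of -1.01 to -0.75. The gene tos (tosca), which encodes a nuclease related to Exo1, had 39.9 CPM in no HS, then 38.9 (8 h), 36.3 (16 h), 25.2 (24 h) and 26.3 (32 h PHS), and its level did not differ between 24 and 32 h beyond counting error (interval of the step -0.09 to 0.22). Top1 (FBgn0004924, chromosome X from 15319479 to 15328029) relaxes the supercoils that form ahead of forks and of transcribing polymerases. It had 333 CPM in no HS, then 406 (8 h), 407 (16 h), 378 (24 h) and 406 (32 h PHS), a log2 change of 0.29 at 8 h and 0.28 at 32 h (interval 0.23 to 0.34), so that no HS was its lowest library and the other 4 lay close together.

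The largest decrease of all 42 genes was that of RnrS, the small subunit of ribonucleotide reductase, the enzyme that makes deoxynucleotides. RnrS (FBgn0011704, chromosome 2R from 11983145 to 11985393) had 262 CPM in no HS, then 251 (8 h), 176 (16 h), 76.6 (24 h) and 61.4 (32 h PHS), and was thus at 29.3% of no HS at 24 h and at 23.5% at 32 h. The log2 change was -0.57 (16 h), -1.76 (24 h) and -2.07 (32 h), with an interval at 32 h of -2.18 to -1.998. Among the 6603 features it ranked 19 at 24 h and 5 at 32 h by size of the decrease. RnrL (FBgn0011703, chromosome 2L from 10325026 to 10327943), the large subunit, had 178 CPM in no HS, then 183 (8 h), 131 (16 h), 81.98 (24 h) and 66.9 (32 h PHS), a log2 change of -1.402, interval -1.51 to -1.32 at 32 h. The subunits were therefore lower by unequal amounts, with a ratio of RnrS to RnrL per kb of 2.37 in no HS, then 2.22 (8 h), 2.18 (16 h), 1.51 (24 h) and 1.49 (32 h PHS).

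Of the genes that assemble chromatin on new DNA, Chrac-14 and Caf1-180 passed 2-fold and Caf1-105 did not. Chrac-14 (FBgn0043002, chromosome 2L from 8437405 to 8437996) encodes a histone-fold protein of the CHRAC remodeller that is also the fly counterpart of a small subunit of polymerase epsilon. It had 98.8 CPM in no HS, then 82.2 (8 h), 69.1 (16 h), 46.02 (24 h) and 35.8 (32 h PHS), lower in each library than in the one before, with a log2 change of -0.26 at 8 h and -1.44 at 32 h (interval -1.60 to -1.33). Caf1-180 (FBgn0030054, chromosome X from 8602137 to 8606304) is the large subunit of CAF-1, the chaperone that PCNA recruits to place histones. It had 234 CPM in no HS, then 229 (8 h), 201 (16 h), 115 (24 h) and 90.6 (32 h PHS), a log2 change of -1.36, interval -1.45 to -1.28 at 32 h. Caf1-105, the middle subunit, had 61.5 CPM in no HS, then 72.2 (8 h), 56.1 (16 h), 43.1 (24 h) and 40.1 (32 h PHS), a log2 change of -0.61, interval -0.76 to -0.47. The intervals of the 2 CAF-1 genes at 32 h did not overlap, and their ratio per kb was 1.39 at 32 h against 2.33 in no HS.

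In depth, the 9 groups ran from nucleotide supply, with a median log2 change at 32 h of -1.74 over 2 genes, and MCM (-1.53, 6 genes) and chromatin assembly (-1.36, 3 genes) to origin firing (-0.49, 8 genes). Between these lay licensing (-0.998), the polymerases (-0.99), the clamp, loader and RPA genes (-0.85), origin recognition (-0.83) and the nuclease and topoisomerase genes (-0.58). In every group but MCM and nucleotide supply, some members were past 2-fold and others were not, or none was. The groups hold few genes each and had 1 library per time, so their order was described and not tested. Genes of one complex are not replicates of one another.

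In timing, the largest step down lay between 16 and 24 h for 32 of the 42 genes, with a median step over all members of -0.52 on the log2 scale. The 32 include Top1, whose step there was -0.11 and whose level stayed above no HS. Over all members the median step was -0.01 between no HS and 8 h, -0.32 between 8 and 16 h, and -0.17 between 24 and 32 h. The interval of the step was below 0 for 35 genes between 8 and 16 h, for 37 between 16 and 24 h and for 26 between 24 and 32 h. The shares of the 6603 features called in that way were 29.2% between 8 and 16 h, 28.1% between 16 and 24 h and 34.6% between 24 and 32 h. For 7 genes the largest step down came earlier, between 8 and 16 h, namely Orc6, Psf1, Psf2, Sld5, RfC3, RfC4 and RPA3. Psf3 and Cdc7 had theirs between no HS and 8 h, where the interval of Cdc7 included 0 (-0.28 to 0.01), and chif had its own between 24 and 32 h. Many of these assignments lay within counting error. The interval of the largest step was apart from those of the gene's other steps for 21 of the 32 genes, Top1 among them, and, of the 7, for Orc6 alone. In RfC4 the first 3 steps were -0.25, -0.28 and -0.27.

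Over the 39 genes whose log2 change at 32 h was below -0.3, a median of 27.8% of the decrease was present at 16 h and 82.4% at 24 h. The share present at 16 h was 77.5% for Psf1, 88.6% for Psf2 and 62.7% for Psf3, but 23.9% for Sld5, which lay within the MCM range of 16.8% to 24.4%. At 16 h the median log2 change of GINS, -0.34, was near that of MCM, -0.31. At 32 h the medians were -0.49 for GINS and -1.53 for MCM, and the difference in timing was not tested. For origin recognition the median share at 16 h was 36.4%, for the polymerases 33.6%, for nucleotide supply 29.4% and for licensing 17.4%. By 24 h the polymerases had 93.2% of their decrease and the MCM genes 78.5%. The steepest single step was that of RnrS between 16 and 24 h, -1.19 with an interval of -1.28 to -1.13, followed by dup at -1.07 (interval -1.17 to -1.004). Shares for genes with a small decrease, such as Gnf1 and the GINS genes, carry wide counting error.

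**Figure D4:**
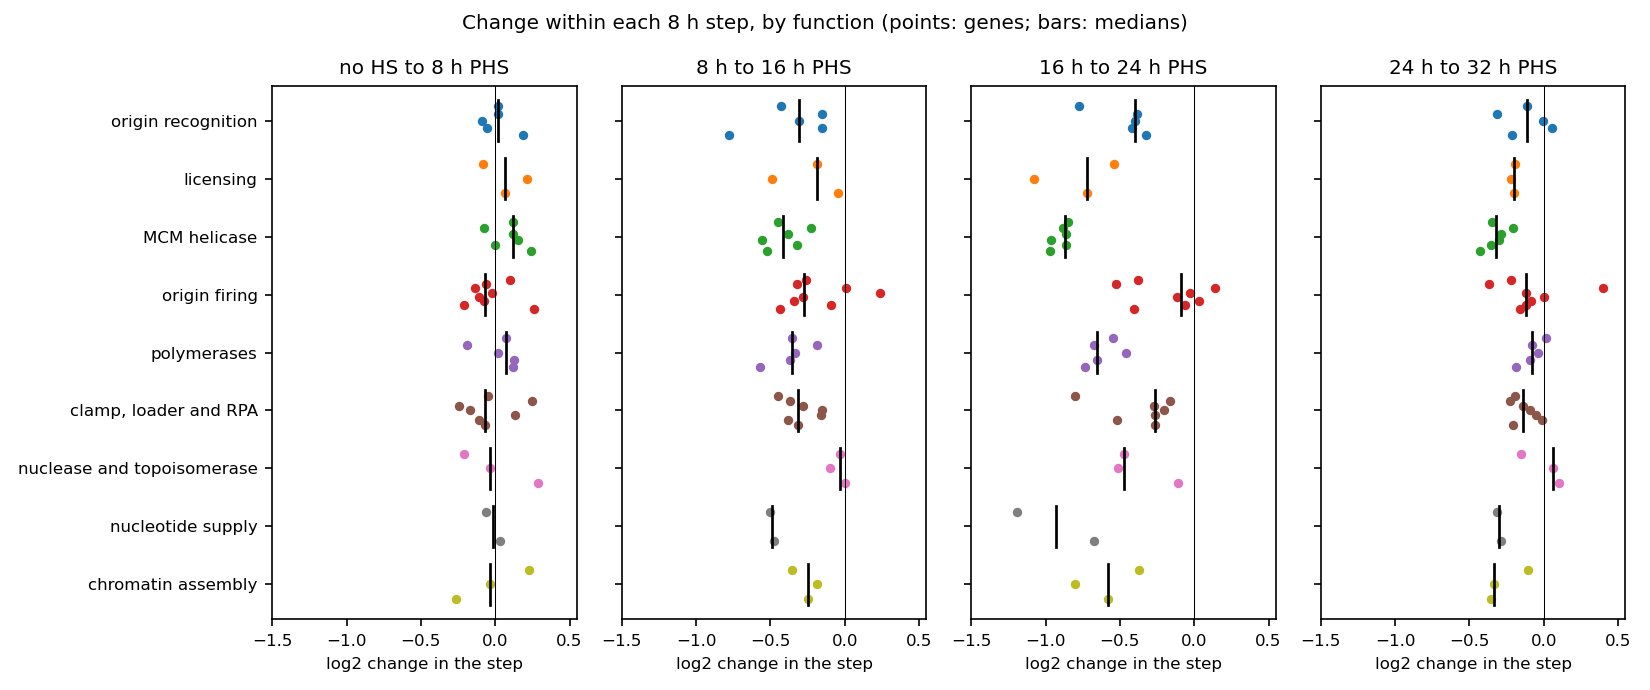
Log2 change within each 8 h step (x axis) for each gene (points) by role (rows), with black bars at the medians of the roles and 1 panel per step. Points of the MCM genes lie together at the left in the step from 16 to 24 h, when 32 of 42 genes had their largest step down, whereas the origin firing genes spread on both sides of 0 in that step.

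Levels per kb of exon set the subunits of one complex on a common scale. In no HS they ran from 16.1 CPM per kb for Mcm7 and 16.7 for tos to 264 for geminin and 471 for PCNA. The 5 MCM genes other than Mcm7 kept within a ratio of 1.64 of each other at 32 h, against 1.52 in no HS, and the 4 GINS genes within 1.41 at 32 h, against 1.43 in no HS. Psf3 was the lowest of GINS in no HS per kb of all exons. It was the highest, at 43.4 CPM per kb, when all of its CPM was divided by its unshared exonic length. As for Mcm7, that measure assumes that no read over shared bases was counted. On that measure the 4 lay within 1.39 at 32 h, against 1.14 in no HS. The median of these 5 MCM genes over the median of the 4 GINS genes, whose products stand in one helicase, was 2.43 in no HS, then 2.78 (8 h), 2.62 (16 h), 1.59 (24 h) and 1.402 (32 h PHS). With Psf3 per kb of unshared exon it was 1.25 at 32 h, against 2.35 in no HS. MCM transcripts were thus closer in level to GINS transcripts in the 24 and 32 h libraries. Clamp loader levels spread over a ratio of 4.199 at 32 h, against 5.601 in no HS, with RfC4 highest and RfC3 lowest. PCNA stood above PolD1, the polymerase subunit it serves, by a ratio per kb of 10.5 at 32 h against 16.6 in no HS.

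**Figure D5:**
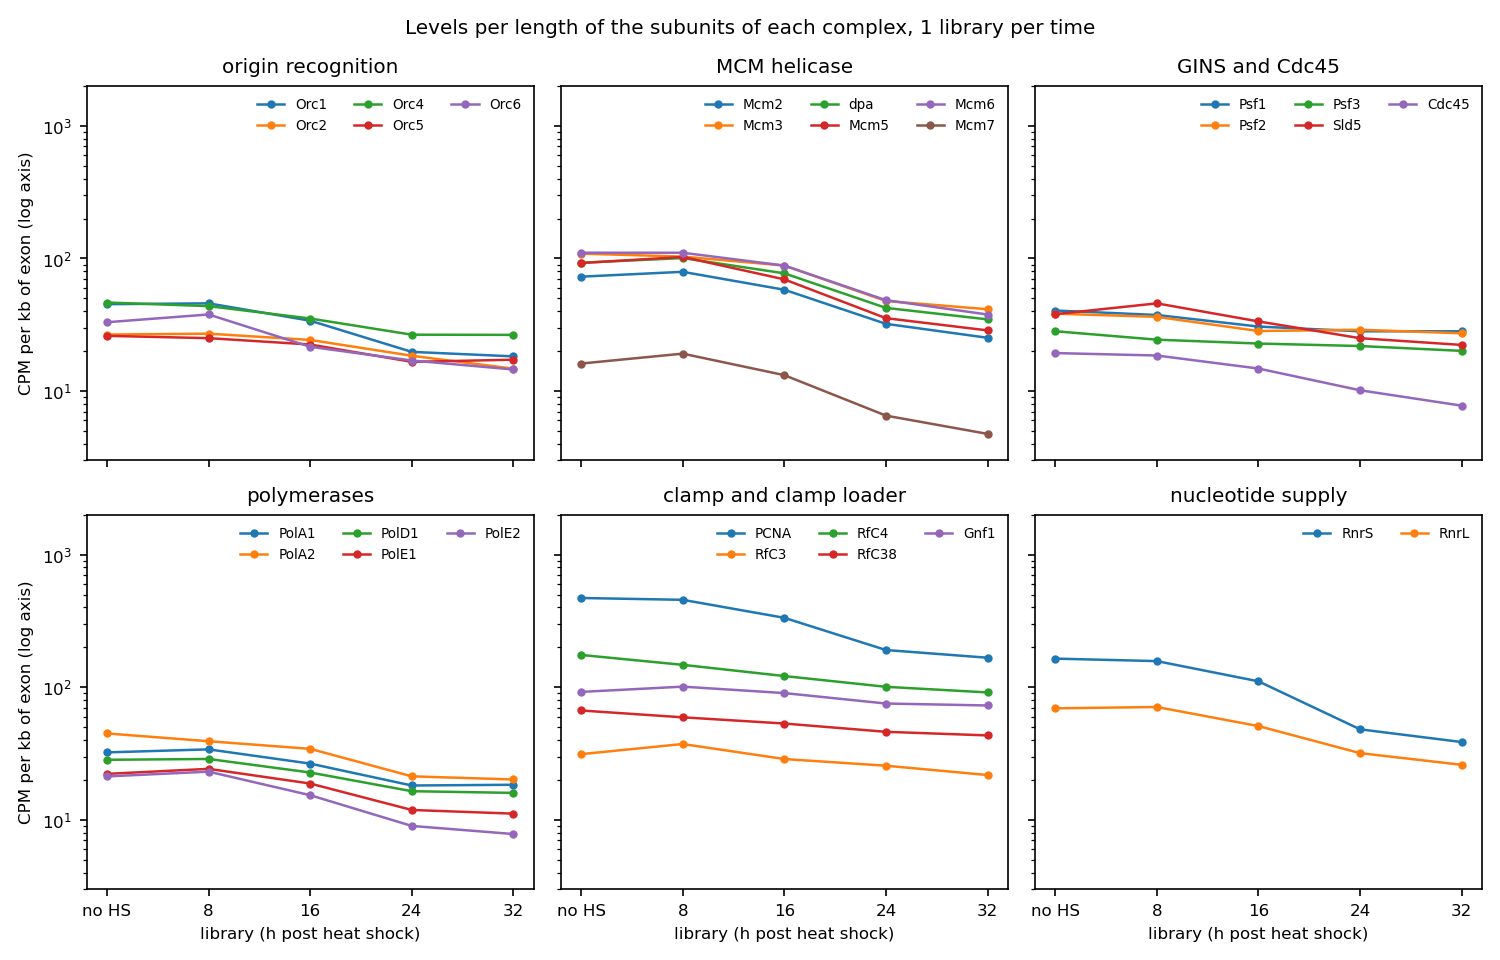
CPM per kb of exon (y axis, log scale) in each library (x axis, h post heat shock) for genes in 6 panels, with 1 point per library. Some panels join separate enzymes or proteins: polymerases alpha, delta and epsilon, GINS with Cdc45, and PCNA with its loader. The MCM lines run parallel and drop at 24 and 32 h, with Mcm7 apart and lower at 16.1 CPM per kb in no HS. From 16 h on, the 4 GINS lines, over all exons, lie between 20.1 and 33.5 CPM per kb. Cdc45 declines over that span, and so does the GINS gene Sld5, from 33.5 CPM per kb at 16 h to 22.3 at 32 h.

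Of 29 further replication genes that were measured and are not among the 42, 27 were lower at both 24 and 32 h PHS. A decrease past 2-fold was seen for 7 of the 29 at 24 h and 11 at 32 h, against 1.42% and 2.09% of the 6603 features. The median log2 change of the 29 was -0.02 (8 h), -0.37 (16 h), -0.87 (24 h) and -0.83 (32 h), against -0.91 for the 42 at 32 h. Among the largest decreases were genes of deoxynucleotide supply. Ts, thymidylate synthase, had 122 CPM in no HS, then 111 (8 h), 73.4 (16 h), 33.9 (24 h) and 28.2 (32 h PHS), and dnk, deoxynucleoside kinase, had 141 CPM in no HS, then 127 (8 h), 90.9 (16 h), 52.5 (24 h) and 41.1 (32 h PHS). CG13690, which encodes a ribonuclease H2 subunit, had a log2 change of -1.99 at 32 h. The primase subunits Prim1 and Prim2 had log2 changes of -1.38 and -1.20 at 32 h. At the other end, Top2 (topoisomerase II) had log2 changes of 0.14 at 24 h and -0.03 at 32 h, and PCNA2, a second clamp gene, of -0.24 at 24 h and 0.18 at 32 h with an interval that included 0 (-0.18 to 0.60). The list also holds lds and xmas, known mainly for transcription and mRNA export, with log2 changes of -0.55 and -0.20 at 32 h.

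Genes of mitosis were lower too, by less. Over 37 mitotic genes the median log2 change was -0.39 at 24 h and -0.49 at 32 h, with 2 past 2-fold at 24 h and 7 at 32 h. The largest decrease was that of CycB, cyclin B, with 199 CPM in no HS, then 193 (8 h), 162 (16 h), 84.9 (24 h) and 69.96 (32 h PHS) (-1.49 on the log2 scale at 32 h), and at the other end the checkpoint kinase gene Bub1 had a log2 change of 0.05. Over 12 regulators of the G1 to S transition the median was -0.61 at 24 h and -0.74 at 32 h, with 2 past 2-fold at 24 h and 4 at 32 h. CycE, cyclin E, which drives S phase entry, had a log2 change of -1.44 at 32 h, and ago, which targets cyclin E for destruction, of 0.18. The transcription factor genes E2f1 and Dp, which control many replication genes in flies and were picked after the values had been seen, had log2 changes of -0.72 and -0.76 at 32 h. Over 39 repair genes, several of which act at forks, the median was -0.12 at 24 h and -0.15 at 32 h, and Parp, which encodes a poly(ADP-ribose) polymerase, had a log2 change of 1.28 at 32 h. Of the 6603 features, 1.42% had a decrease past 2-fold at 24 h and 2.09% at 32 h. The differences between these lists and the replication genes were not tested.

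By chromosome arm, 10 of the members lay on 2L, 10 on 2R, 6 on 3L, 8 on 3R and 8 on X. Of the 42 genes, 33 shared under 5% of their exonic bases with another annotated gene. The 9 that shared more include Mcm7, Psf3, RfC38, chif and Mcm10, and Fen1, Orc6, Orc5 and dup at between 5.04% and 5.81%. Over the 33 alone, a choice made after the values had been seen, the median log2 change was -0.82 at 24 h and -0.99 at 32 h, and 14 passed 2-fold at 24 h and 15 at 32 h.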

How the data were processed

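Poly(A) RNA-seq libraries of 5 groups (no HS, and 8, 16, 24 and 32 h PHS), each with 1 library, were analysed from one table whose columns were matched to samples by name (0 unmatched). Reads of 100 bp, in pairs, went through Trim Galore 0.4.3 in the hands of the authors, at a Phred score of 20 and a stringency of 1. STAR 2.5.3 then placed them on BDGP6.46, SAMtools 1.4.1 kept proper pairs with a mapping quality of 10 or more, and featureCounts (Subread 1.5.0) counted them per gene. The strand setting is not given in the sources used here. The authors normalized between libraries by TMM in edgeR 3.34.0 under R 4.1.0 and deposited log2 values of CPM + 1. CPM itself had been assumed in the plan, so the log2 was undone and the planned measures were kept. Reads were recovered from the steps between low CPM values, whole within 0.1 reads.

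Changes are differences of log2(CPM + 1), so they understate those of low genes. Past 2-fold means a difference beyond 1. Intervals rest on the exact binomial (Clopper-Pearson, 95%) interval of one library's share of a gene's reads in 2 libraries. They compare libraries, not conditions, and without molecular identifiers they cover counting error only. No model was fitted across genes, since 1 library per time leaves no estimate of variation. Lengths, positions and overlaps of exons come from Ensembl release 115 (BDGP6.54), which held all 42 genes by identifier, and no coordinates were converted. No sequences were used. The steps were tested on simulated data. Software was Python 3.11.15, numpy 2.4.6, pandas 2.3.3, scipy 1.17.1 and matplotlib 3.10.9.

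The members, their 9 roles and the lists (other replication genes, mitosis, repair, G1 to S, and markers of germ line, spermatocytes, cyst cells, hub, muscle sheath, accessory gland, fat body and heat shock) were chosen with earlier results of these data known. All 42 members are named. Of the other lists, the genes with the largest and smallest changes at 32 h are named, and a few more that were picked after their values were seen, except for 1 result that is not reported here. Of 35 listed other replication genes, 29 were used, 5 were not analysed here and 1 was already counted under another name. The name Tk, listed for the deoxynucleoside kinase, belongs to a neuropeptide gene in flies, and dnk was used. Alternatives were pseudocounts of 0.1 and 5 CPM, a filter at a mean of 10 CPM, rescaling by library total, median ratio or upper quartile, a baseline of 8 h or of the mean of no HS and 8 h, and thresholds of 1.5-fold and 3-fold. A restriction to members with under 5% shared exonic bases was added after the values had been seen.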

Additional observations from a re-analysis of the deposited data

How the results depend on the processing

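The count of replication genes past the threshold depended on the threshold: at 1.5-fold it was 1 (16 h), 29 (24 h) and 32 (32 h), and at 3-fold it was 1 at 24 h (RnrS) and 3 at 32 h, because these thresholds ask for less or more change by construction. Under the other pseudocounts, scalings, baselines and the added restriction to 33 genes, the count past 2-fold stayed between 13 and 16 at 24 h and between 15 and 19 at 32 h, and was 0 at 16 h. The median log2 change lay between -0.32 and -0.29 (16 h), -0.82 and -0.76 (24 h), and -0.99 and -0.86 (32 h). At 8 h the median lay between -0.02 and 0.02, and its sign followed the scaling. With 8 h as the baseline, Caf1-180, Chrac-14, Orc6, PolA2, PolE1 and RPA2 changed their side of 2-fold at 24 h, and PolA2, PolE1, RPA2 and Sld5 at 32 h. With that baseline geminin and Cdc7 at 16 h, and Top1 at 24 and 32 h, changed sign. Scaling to a total of 1000000 turned the sign of Mcm6 and chif at 8 h. RPA2 also crossed 2-fold at 24 and 32 h under a pseudocount of 5 CPM and under the upper quartile, and at 32 h under the total. The causes were not tested. No paired analysis was possible because each time has 1 library. Depth limits the genes with few reads most: Psf1 had 288 reads in no HS.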
